A study of Homo sapiens with 14 samples.

Results

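The RNAs described here were 8 long noncoding RNAs linked to cell senescence, MALAT1, NEAT1, GAS5, MIR31HG, CDKN2B-AS1, PVT1, SNHG1 and MIR22HG. They were chosen by name, and all 8 were listed in each kind of table, among 57791 genes in the tables of young and old cells, 54628 in those of wild-type and HMGB2 knockdown cells and 38716 in those of cells treated with ICM. The cells were IMR90, a human lung fibroblast line with a limited life span in culture, and poly(A)-selected RNA was sequenced. Young and old cultures, which the study treats as proliferating and as passaged into senescence, came from the isolates I79 and I10, with 1 table for each isolate and age. HMGB2_KD cells, in which siRNA lowered the chromatin protein HMGB2, and wild-type (WT) cells had 2 libraries each, and their labels give neither the isolate nor whether WT cells received a control siRNA. I79 cells treated with inflachromene (ICM), a small molecule that binds HMGB1 and HMGB2, had 2 libraries and no control counted the same way. The tables of young and old cells held 14991385 to 20632959 estimated counts, the WT and knockdown libraries 33561766 to 41168932 counts and the ICM libraries 10971132 and 13290131 reads.

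Long noncoding RNAs carry no protein and act as RNAs, as scaffolds, as hosts of small RNAs or through the act of their transcription. MALAT1 and NEAT1 are neighbours that stay in the nucleus: MALAT1 gathers at nuclear speckles, and the long form of NEAT1 is the scaffold of paraspeckles, nuclear bodies that hold RNA-binding proteins. GAS5 and SNHG1 host small nucleolar RNAs (snoRNAs) in their introns, and their spliced transcripts are cleared by nonsense-mediated decay when they are translated. MIR31HG and MIR22HG are the host genes of miR-31 and miR-22. CDKN2B-AS1, also called ANRIL, is transcribed against the cell cycle inhibitor genes CDKN2A and CDKN2B and is known to help Polycomb silence them, and PVT1 lies next to MYC.

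In the GENCODE annotation of GRCh37, NEAT1 (chr11:65190245-65213011) and MALAT1 (chr11:65265111-65275544) lie on the plus strand of chromosome 11, and FRMD8 is the nearest protein-coding gene on the NEAT1 side of the pair. SNHG1 (chr11:62619450-62623425) lies on the minus strand of the same chromosome beside SLC3A2. GAS5 (chr1:173827697-173838020, minus strand) overlaps the annotated end of ZBTB37. MIR31HG (chr9:21380072-21559890, minus strand) spans interferon genes, and CDKN2B-AS1 (chr9:21994138-22128102, plus strand) overlaps CDKN2A and CDKN2B on the other strand. MIR22HG (chr17:1614741-1620468, minus strand) overlaps WDR81, and PVT1 begins 51.6 kb beyond MYC.

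The 3′ ends of NEAT1 and MALAT1 are shown because poly(A) selection captures RNAs by a tail that not every form has. The short form of NEAT1 ends after a poly(A) signal (chr11:65193931-65193990, with the signal AATAAA in capitals). In the annotation, the short transcripts ENST00000645023 and ENST00000499732 end before it, at 65193970 and 65193928, and ENST00000646243 ends after it, at 65193984. The long form of NEAT1 (chr11:65212912-65213011) and MALAT1 (chr11:65273488-65273587) have no poly(A) tail and end in U-rich motifs that fold with a genomically encoded A-rich tract, here all in capitals.
NEAT1 short form: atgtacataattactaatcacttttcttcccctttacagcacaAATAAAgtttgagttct
NEAT1 long form: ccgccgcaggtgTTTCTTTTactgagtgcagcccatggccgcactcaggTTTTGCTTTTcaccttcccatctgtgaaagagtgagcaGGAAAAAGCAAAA
MALAT1: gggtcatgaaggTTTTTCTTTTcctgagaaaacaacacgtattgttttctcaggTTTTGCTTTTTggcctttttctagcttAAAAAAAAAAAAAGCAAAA

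The 5′ ends of the main spliced transcripts of the snoRNA hosts are shown because such genes are known for starts rich in pyrimidines (C or T), the terminal oligopyrimidine (5′ TOP) kind. The capitals mark the first run of at least 6 pyrimidines, which began at base 1 in the GAS5 transcript ENST00000450589 (chr1:173837098-173837127, minus strand) and at base 6 in the SNHG1 transcript ENST00000539921 (chr11:62623329-62623358, minus strand). A run of this length on the transcribed strand stood in the first 30 transcribed bases of 27.0% of 35116 RefSeq gene starts.
GAS5: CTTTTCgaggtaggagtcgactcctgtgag
SNHG1: tctcaTTTTTCTactgctcgtggtaagtgg

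The mature microRNAs of the host genes are printed from RefSeq with the seed, bases 2 to 8, in capitals, because the tables held the hosts and no mature microRNA was analysed here. The bases of miR-31-5p (chr9:21512157-21512177) lie inside the gene body of MIR31HG and in no annotated exon of it. Those of miR-22-3p (chr17:1617208-1617229) lie in an exon of ENST00000574306, the transcript with most of the host's reads.
hsa-miR-31-5p: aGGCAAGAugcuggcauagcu
hsa-miR-22-3p: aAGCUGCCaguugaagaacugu

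The labels were checked on 4 genes before the RNAs were read. HMGB2 had 27.1 and 27.4 CPM, or counts scaled to a library total of 1000000, in the WT libraries, and 3.22 and 3.64 CPM in the knockdown libraries (log2 fold change -2.99 with SE 0.165, adjusted p 8.28e-07, edgeR), so the knockdown libraries matched their label. In old cells the cell cycle inhibitor CDKN1A was higher (log2 fold change 2.48), and LMNB1 (-2.86), HMGB2 (-1.64) and HMGB1 (-1.42) were lower. Of 10 fibroblast marker genes all were tested in both comparisons, and their summed level was 30310 to 43580 CPM in young and old cells. It was 22660 and 30070 CPM in the WT libraries, and 36580 and 44840 CPM in the knockdown libraries, where 4 of the 10 were called higher and 1 lower, and the part of this in the results below was not tested. Markers of epithelial, endothelial and blood cells (9 genes) summed to 1.22 and 1.15 CPM in young and to 3.31 and 3.21 CPM in old I79 and I10 cells, in old cells mostly from VWF, and to 1.61 to 2.89 CPM in WT and HMGB2_KD libraries. SFTPC, CDH5 and CD3E were at 0 in all tables, and the part of these markers in the results was not tested.

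Old and young cells were compared to see which of the RNAs change when fibroblasts are passaged into senescence. MALAT1 and NEAT1 were higher in old cells of both isolates, NEAT1 by 3.46-fold in I79 and 2.66-fold in I10. They were the only RNAs of the 8 called in the edgeR quasi-likelihood test with isolate as covariate. A gene was called at a Benjamini-Hochberg adjusted p below 0.01 over all 15116 genes tested and a log2 fold change beyond 0.6, and 2 of the 8 RNAs, both higher, stood beside 9.57% of all genes called, 5.75% higher and 3.82% lower. Groups did not overlap for 7 of the 8 RNAs, beside 73.9% of all genes. Among the 1682 long noncoding RNAs tested, 27 were called higher (1.61%) and 7 lower (0.416%). The 2 replicates named in each label share 1 table, so each isolate served as a replicate, which left the fit 1 residual degree of freedom.

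NEAT1 rose most. It stood at 159.0 CPM in young and 550.4 CPM in old I79 cells, and at 175.1 CPM in young and 464.9 CPM in old I10 cells. Both old tables lay far above both young tables, and the fitted log2 fold change was 1.60 with an SE of 0.15 (adjusted p 0.00499, edgeR). Within I79 the log2 difference was 1.79 (95% exact interval 1.73 to 1.86) and within I10 it was 1.41 (1.35 to 1.47), where the intervals cover counting error only.

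MALAT1 stood at 241.4 CPM in young and 542.7 CPM in old I79 cells, and at 275.1 CPM in young and 529.2 CPM in old I10 cells. The means were 258.2 ± 23.8 CPM in young and 535.9 ± 9.51 CPM in old cells (SD, n = 2 isolates), and the isolates lay close together at each age. The log2 fold change was 1.06 (SE 0.13, adjusted p 0.00779, edgeR), 2.25-fold in I79 and 1.92-fold in I10.

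GAS5, a snoRNA host known to build up when cells stop growing, was higher in both old tables and missed the threshold. It stood at 138.8 CPM in young and 285.0 CPM in old I79 cells, and at 148.4 CPM in young and 239.2 CPM in old I10 cells. Its log2 fold change was 0.86 (SE 0.13, adjusted p 0.0125, edgeR). With median-of-ratios (RLE) size factors, with plain library totals, with DESeq2 and without the isolate covariate, GAS5 was called as well.

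SNHG1, the other snoRNA host, had a fold change of the opposite sign. It stood at 59.7 CPM in young and 55.8 CPM in old I79 cells, and at 56.1 CPM in young and 35.7 CPM in old I10 cells. The groups did not overlap, but the old tables were far apart and the log2 fold change was -0.37 with an SE of 0.16 and was not called (adjusted p 0.146, edgeR). Its difference was -0.10 within I79 and -0.65 within I10.

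Neither host gene, of miR-31 or of miR-22, was called. MIR31HG stood at 1.98 CPM in young and 4.72 CPM in old I79 cells (31 and 87 estimated counts), and at 3.13 CPM in young and 4.59 CPM in old I10 cells (60 and 83 estimated counts). The groups did not overlap, yet at these counts the log2 fold change of 0.88 had an SE of 0.31 (adjusted p 0.0899, edgeR). MIR22HG stood at 48.8 CPM in young and 35.9 CPM in old I79 cells, and at 44.55 CPM in young and 46.5 CPM in old I10 cells. It was the only one of the 8 whose groups overlapped. The log2 difference was -0.44 in I79 (95% exact interval -0.59 to -0.29) and 0.06 in I10, where the interval of -0.08 to 0.20 includes 0. In TPM, which also scales by length, MIR22HG in I10 was at 42.5 in young and 39.6 in old cells, so the sign in I10 depended on the scale.

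CDKN2B-AS1 and PVT1, the RNAs beside CDKN2B and MYC, were low. CDKN2B-AS1 had 17 and 29 estimated counts in young I79 and I10 cells and 13 and 11 in old ones, or 1.09 and 1.51 CPM against 0.71 and 0.61 CPM. Both old tables were below both young ones, and the log2 fold change was -0.97 with an SE of 0.46 and was not called (adjusted p 0.171, edgeR). PVT1 stood at 5.63 CPM in young and 12.75 CPM in old I79 cells, and at 6.83 CPM in young and 10.17 CPM in old I10 cells, for which the log2 fold change was 0.87 with an SE of 0.22 (adjusted p 0.0425, edgeR). Without the filter on low counts, PVT1 and GAS5 were called beside MALAT1 and NEAT1.

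**Figure D1:**
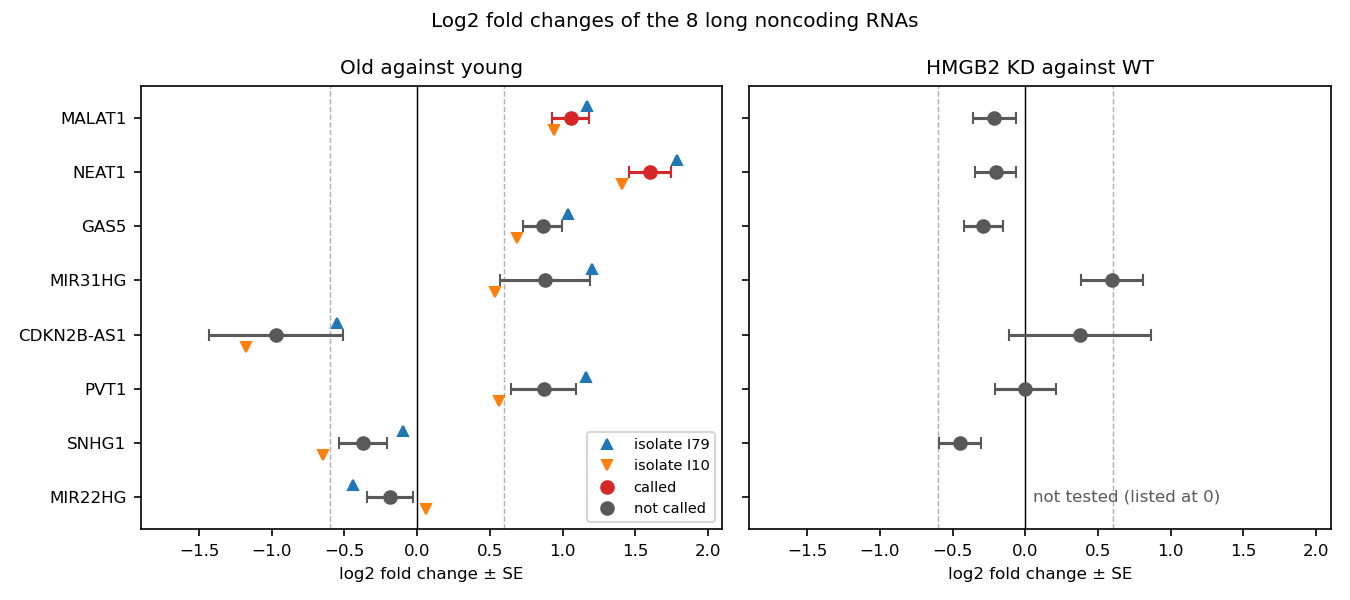
Log2 fold changes of the 8 long noncoding RNAs from edgeR, with SE as bars, for old against young cells (left) and HMGB2 KD against WT (right); triangles give the log2 difference within each isolate, red points are called and dashed lines mark 0.6 in either direction. NEAT1 (1.60) and MALAT1 (1.06) are the called points, and no point is called on the right.

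Per length, GAS5 was the most abundant of the 8 in every table of young and old cells. In TPM, the same kind of scale after counts are divided by transcript length, GAS5 ranged from 445 to 882.2 TPM. MALAT1 (108.7 to 230.2 TPM), NEAT1 (77.2 to 248.3 TPM) and SNHG1 (57.7 to 112.9 TPM) came next, and their ranges overlapped. MIR22HG (33.0 to 43.4 TPM), PVT1 (15.5 to 32.3 TPM), MIR31HG (5.62 to 12.1 TPM) and CDKN2B-AS1 (0.55 to 1.82 TPM) followed in that order, with no overlap between neighbours.

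The long form of NEAT1 had a greater fold difference than the rest of the gene. The transcript ENST00000501122, the unspliced long form of 22743 bases (chr11:65190269-65213011) that builds paraspeckles, had 170.1 estimated counts in young and 1470.8 in old I79 cells, and 197.8 in young and 1163.6 in old I10 cells. Its CPM was 7.33-fold higher in old I79 and 6.23-fold higher in old I10 cells, while the rest of NEAT1 was 3.18-fold and 2.43-fold higher. The log2 difference of the long form was 2.87 (95% exact interval 2.64 to 3.11) in I79 and 2.64 (2.42 to 2.86) in I10. The long form took 6.85% of the gene's estimated counts in young and 14.5% in old I79 cells, and 5.89% and 13.8% in I10. The short transcript ENST00000645023 (chr11:65190596-65193970) kept the largest share, between 53.8% and 57.9%, and the short transcript ENST00000499732 went from 32.7% to 20.1% in I79 and from 30.6% to 19.7% in I10. The short and long forms share their 5′ bases, so reads there were split between them by the quantifier, and no test was made on transcripts. Carry-over into poly(A)-selected libraries was looked for in other RNAs without a poly(A) tail, which need not stand for the NEAT1 long form. Of 12 such RNAs, 7 were listed and 3 tested, none was called, and their summed level was 8.001 CPM in young and 9.77 CPM in old I79 cells and 6.05 and 7.90 CPM in I10. All 3 tested had positive log2 fold changes (median 0.56, beside -0.01 over all genes). The part of such carry-over in the values of the NEAT1 long form was not tested. Nor was its part in those of MALAT1, which also lacks a poly(A) tail, in any library.

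The higher values of GAS5 lay in its 2 main transcripts, as reads were split by the quantifier. GAS5 transcripts overlap, so reads on shared bases can fit more than 1 of them, and no test was made on transcripts. ENST00000450589, annotated with 12 exons, took 35.1% of the gene's estimated counts in young and 59.7% in old I79 cells, and 34.7% and 55.3% in I10. Its CPM was 3.49-fold higher in old I79 and 2.57-fold higher in old I10 cells, and that of ENST00000448718, the second in share, was 1.88-fold and 1.65-fold higher. The other 27 transcripts of GAS5 together were at 0.891-fold in I79 and 0.754-fold in I10, and went from 39.6% to 17.2% and from 39.8% to 18.6% of the gene.

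MALAT1 reads lay mainly on 2 transcripts, and one of them had the greater fold difference. ENST00000619449 was 3.49-fold higher in old I79 and 2.48-fold higher in old I10 cells, and went from 37.9% to 58.7% and from 40.9% to 52.8% of the gene. ENST00000534336 was 1.43-fold and 1.5-fold higher. ENST00000619449 (chr11:65265159-65270435) lies within the span of ENST00000534336 (chr11:65265111-65275544). Reads on shared bases were split between them by the quantifier, and no test was made on transcripts. The lengths of both transcripts, and of those named for GAS5, differ between the deposited tables and the annotation used here. Among others, so do those of the main transcripts of MIR31HG (745 against 2702 bases), SNHG1 (1071 against 1108) and MIR22HG (2626 against 2633). The structure of these transcripts in the tables may thus differ from the annotated one, and the starts shown for the snoRNA hosts are those of the annotation.

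For SNHG1 and the miRNA hosts the shares were as follows in young and old cells. Of SNHG1, ENST00000539921 held 41.2% of the gene's estimated counts in young and 42.9% in old I79 cells, and 38.6% and 52.1% in I10. The retained-intron transcript ENST00000538654 held 21.7% and 21.9% in I79, and 25.6% and 17.6% in I10, so the larger shifts stood in I10. The main transcript of MIR22HG, ENST00000574306, took 79.4% to 89.9% of its gene, and MIR31HG was listed with 1 transcript. Of PVT1, 5 of 20 transcripts reached 10% of the gene in a table, and of CDKN2B-AS1 11 of 21 did, each on few counts.

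**Figure D2:**
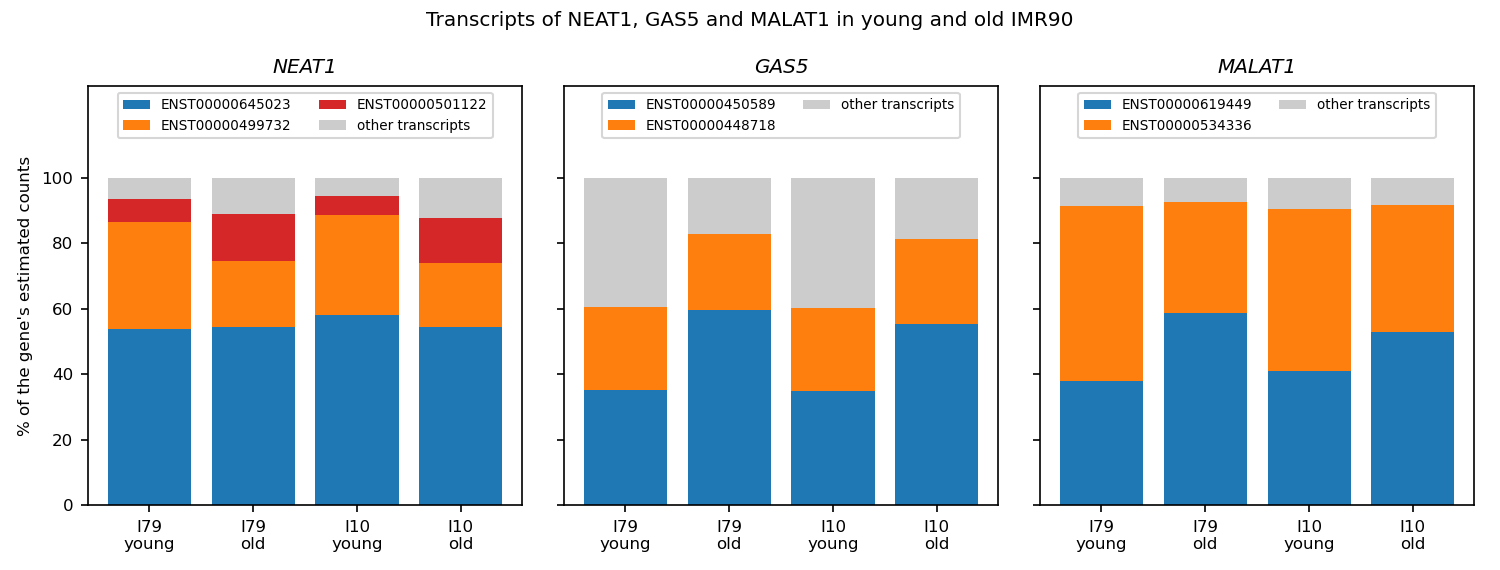
Share of each gene's estimated counts, in percent, taken by the transcripts of NEAT1, GAS5 and MALAT1 with at least 10% in a table, in young and old cells of both isolates; grey is all other transcripts. The long form, ENST00000501122, goes from 6.85% to 14.5% in I79 and from 5.89% to 13.8% in I10, and the GAS5 transcript ENST00000450589 from 35.1% to 59.7% and from 34.7% to 55.3%.

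WT and HMGB2_KD cells were compared to see which of the RNAs respond when HMGB2 is lowered. None of the 7 RNAs tested was called with edgeR, beside 5.2% of 15338 genes (2.86% higher and 2.34% lower), and DESeq2 called none either. At an unadjusted p under 0.05 there were 2, SNHG1 and MIR31HG, beside 23.9% of all genes. Groups did not overlap for 5 of the 7, beside 53.7% of all genes. Nothing in the labels says whether the 2 libraries of a group came from separate cultures, so p-values measure the spread between these libraries.

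SNHG1 and MIR31HG had the largest differences relative to their error. SNHG1 had 36.7 and 30.3 CPM in the WT libraries, and 24.9 and 24.1 CPM in the knockdown libraries (log2 fold change -0.45, SE 0.14, adjusted p 0.0584, edgeR). MIR31HG had 4.64 and 4.31 CPM in the WT libraries, and 6.53 and 7.02 CPM in the knockdown libraries (0.60, SE 0.21, adjusted p 0.0925, edgeR). Each had groups that did not overlap.

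MALAT1 and NEAT1, which were called in old cells, had negative values after the knockdown. MALAT1 had 516.6 and 617.0 CPM in the WT libraries, and 468.8 and 509.7 CPM in the knockdown libraries (log2 fold change -0.21, SE 0.15, adjusted p 0.427, edgeR), with no overlap. NEAT1 had 189.1 and 216.4 CPM in the WT libraries, and 161.4 and 190.3 CPM in the knockdown libraries (-0.205, SE 0.14, adjusted p 0.422, edgeR), and the groups overlapped. TALAM1, which is antisense to MALAT1, had 484 to 721 counts in these libraries against 17162 to 23033 for MALAT1.

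GAS5 had 45.7 and 39.03 CPM in the WT libraries, and 33.1 and 36.3 CPM in the knockdown libraries (log2 fold change -0.29, SE 0.14, adjusted p 0.223, edgeR). PVT1 had 5.96 and 5.92 CPM in the WT libraries, and 5.46 and 6.42 CPM in the knockdown libraries, and its log2 fold change of 0.001 (SE 0.21) changed sign with the scaling. CDKN2B-AS1 had 24 and 28 counts in the WT libraries, and 37 and 35 in the knockdown libraries (log2 fold change 0.38, SE 0.49, adjusted p 0.709, edgeR). MIR22HG was listed at 0 in all 4 libraries. It was not alone, since 10 of 155 long noncoding RNAs with at least 100 estimated counts in each table of young and old cells were listed at 0 there, so the 0 is not read as a level.

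The protein-coding neighbours included called genes where the RNAs beside them were not. CDKN2B, the cell cycle inhibitor gene that CDKN2B-AS1 overlaps, had 19.9 and 18.2 CPM in the WT libraries, and 42.9 and 45.55 CPM in the knockdown libraries (log2 fold change 1.21, SE 0.14, adjusted p 0.000108, edgeR). FRMD8, which flanks NEAT1, was called higher too (0.91, SE 0.15, adjusted p 0.0015, edgeR). These were 2 of the 14 nearest or overlapping protein-coding genes tested, and none was called lower. CDKN2A (0.45, adjusted p 0.0545), MTAP (-0.46, adjusted p 0.0423) and MYC (-0.32, adjusted p 0.151) were not called. In old against young cells none of 13 such genes was called at the edgeR thresholds. CDKN2B had a log2 fold change of 0.11 (SE 0.245) and CDKN2A of 0.44 (SE 0.30), but the isolates differed in sign. For CDKN2B the log2 difference was -0.282 within I79 and 0.466 within I10. For CDKN2A it was -0.123 within I79 and 0.953 within I10. These positive fold changes thus rest on I10, and the difference between the isolates was not tested.

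ICM-treated I79 cells were set beside young and old I79 cells to see on which side of them each RNA lies. These tables were counted in different ways, so no test was made, and levels are CPM over the 24638 genes listed in all of them. As a reference without ICM, tables counted in different ways were compared for WT and I79 young cells, where 43.2% of 13857 genes with a mean of at least 10 counts lay more than 0.6 apart as log2 values. Between ICM and I79 young cells it was 59.2%, and between the young tables of I10 and I79, counted the same way, 8.4%.

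NEAT1 lay between young and old cells, at 376.0 and 404.7 CPM after ICM against 181.2 CPM in young and 558.6 CPM in old I79 cells. The log2 ratio to young cells was 1.11 after ICM and 0.28 in WT. With coding and noncoding ICM reads only it was 1.77, above the 1.62 of old to young cells, so NEAT1 then lay above both. PVT1 stood at 6.43 and 7.105 CPM after ICM, against 6.42 CPM in young and 12.9 CPM in old cells. It lay between them as well and close to young cells, with the lower value only just above them. Its log2 ratio to young cells was 0.07, and 0.73 with coding and noncoding ICM reads only, against 1.0 of old to young cells.

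MALAT1 and SNHG1 lay far below both. MALAT1 stood at 66.2 and 55.8 CPM after ICM, against 275.1 CPM in young and 550.8 CPM in old I79 cells, so the log2 ratio to young cells was -2.18 after ICM and 1.15 in WT. SNHG1 stood at 15.2 and 13.6 CPM after ICM, against 68.0 CPM in young and 56.7 CPM in old cells, with ratios of -2.23 after ICM and -0.91 in WT. GAS5, at 126.6 and 121.8 CPM after ICM, lay below 158.3 CPM in young and 289.3 CPM in old cells (-0.35), but the WT ratio was -1.79. With coding and noncoding ICM reads only the ratio of GAS5 was 0.31, and with these smaller ICM totals it lay above young cells. Its side of young cells thus depended on the totals used and was not settled.

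The remaining RNAs lay above both young and old I79 cells after ICM, MIR22HG and CDKN2B-AS1 with small ratios to young cells. MIR31HG stood at 10.1 and 8.75 CPM, against 2.26 CPM in young and 4.79 CPM in old cells, and its log2 ratio to young cells was 2.01 after ICM and 1.07 in WT. MIR22HG stood at 62.0 and 69.8 CPM, against 55.6 CPM in young and 36.45 CPM in old cells (0.24). It was listed at 0 in WT, so it had no reference without ICM. CDKN2B-AS1 stood at 1.31 and 1.44 CPM, against 1.24 CPM in young and 0.71 CPM in old cells. Its log2 ratio to young cells was 0.14 after ICM and -0.6 in WT. These values rest on 16.8 and 15.3 reads after ICM and 17 estimated counts in young I79 cells. For MIR22HG and CDKN2B-AS1 the side of young cells was thus not settled. ICM reads of all 8 RNAs were filed under the noncoding region of the tables.

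**Figure D3:**
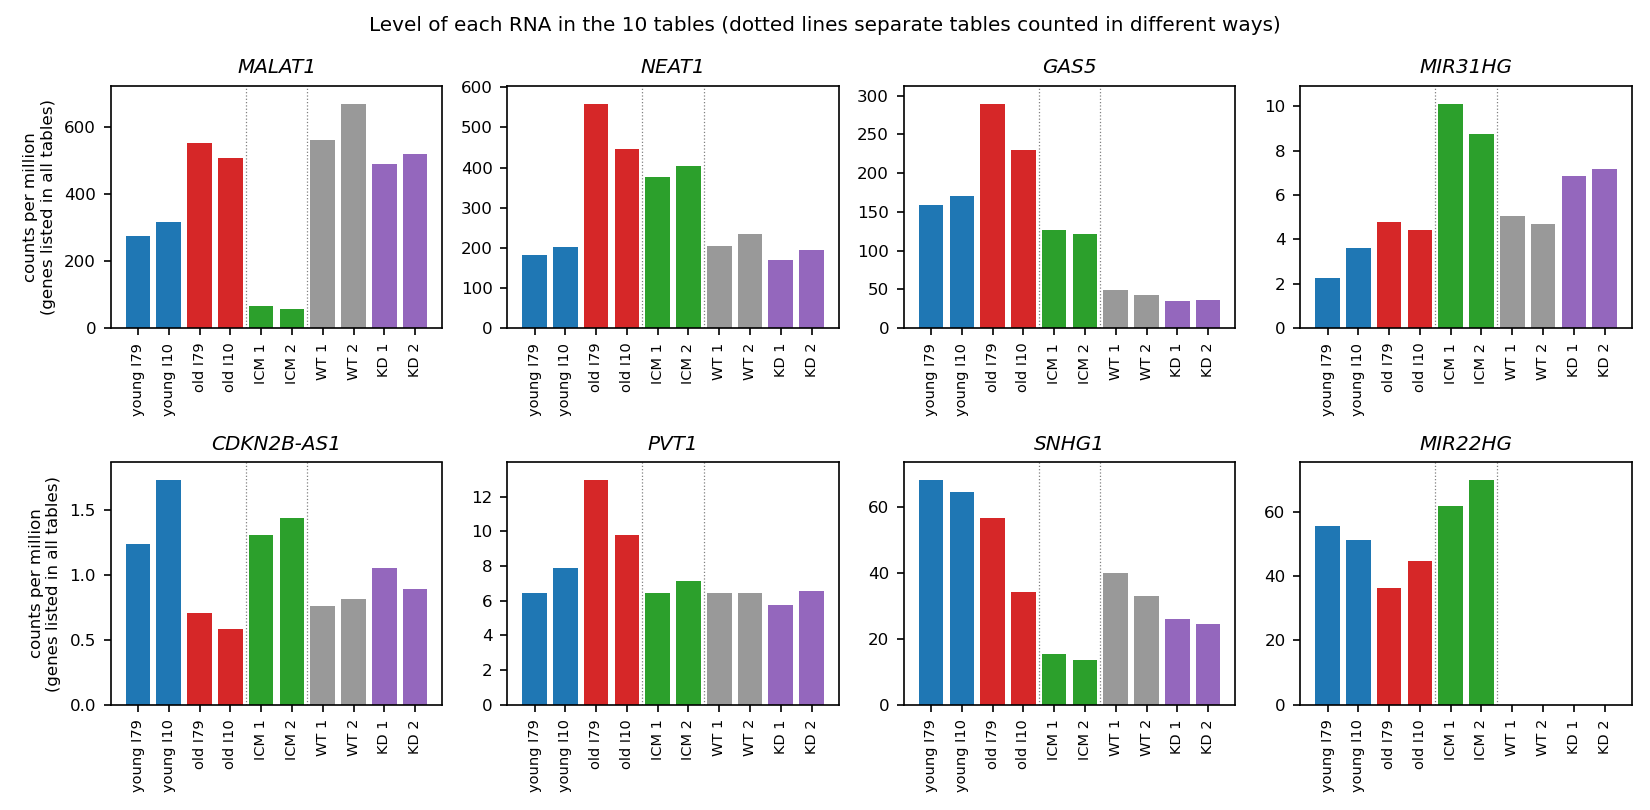
Level of each RNA in CPM over the genes listed in all tables (y axis, from 0) in young, old, ICM-treated, WT and HMGB2 KD cells; each bar is 1 table, and dotted lines separate tables that were counted in different ways. NEAT1 after ICM (376.0 and 404.7) lies between young (181.2) and old (558.6) I79 cells, MALAT1 after ICM (66.2 and 55.8) lies below both, and MIR22HG is listed at 0 in WT and HMGB2 KD.

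Related genes were counted to set the 8 RNAs in their pathways, with lists that leave the 8 RNAs out. All 21 other snoRNA host genes were tested in old against young cells, and 2 were called lower and none higher (median log2 fold change -0.21). The called genes were SNHG3 (-1.21, adjusted p 0.00725) and DANCR (-1.40, adjusted p 0.00829, both edgeR). The median of the 8 RNAs was 0.87, beside 0.10 over the 1682 long noncoding RNAs tested and -0.01 over all genes. The 8 RNAs were chosen with earlier results of these data known. In HMGB2_KD cells none of 19 snoRNA hosts was called, and SNHG20 had the largest value (-0.64, adjusted p 0.288, edgeR).

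Of the mRNAs of 14 paraspeckle proteins, 3 were called lower in old cells, and all 14 had negative log2 fold changes, with a median of -0.48. RBM14 was at 44.3 CPM in young I79 and 21.3 CPM in old I79 cells, and at 43.9 CPM in young I10 and 23.7 CPM in old I10 cells (log2 fold change -0.97, adjusted p 0.00806, edgeR). SFPQ (-0.87) and SMARCA4 (-0.76) were the others called. SFPQ and RBM14 are needed to build paraspeckles. In HMGB2_KD cells none of 13 tested was called, and NUDT21 had the largest value (-0.44, adjusted p 0.0315, edgeR).

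Other regulatory long noncoding RNAs and microRNA hosts included fold changes beyond those of the 8 RNAs. In old against young cells 4 of 20 tested were called higher and 1 lower (median -0.09). PURPL, a p53-induced RNA, stood at 0.58 CPM in young and 16.9 CPM in old I79 cells and at 0.10 CPM in young and 6.08 CPM in old I10 cells (log2 fold change 5.13, adjusted p 0.00361, edgeR). MIR210HG (2.31) and LINC-PINT (1.89) were called higher, and MIR503HG was called lower (-1.225). CYTOR was the other call, and was higher (0.97). In HMGB2_KD cells 1 of 20 was called higher, DNM3OS (1.02), and 3 lower, OIP5-AS1 (-1.09), MIR503HG (-1.06) and NORAD (-0.635).

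Factors of nonsense-mediated decay, which clears spliced GAS5 and SNHG1, held no call in either comparison with edgeR. In old against young cells the 10 tested had a median of -0.07, and UPF3B had the largest value (-0.67, adjusted p 0.0297). In HMGB2_KD cells the median was 0.00, and UPF3B again had the largest value (-0.405, adjusted p 0.0857). The 5′ TOP mRNAs of translation factors, whose own starts were not examined here, held no call either. Of them 13 were tested in old against young cells (median 0.29, with TPT1 largest at 0.59, adjusted p 0.0588, edgeR) and 12 in HMGB2_KD cells (median 0.03, with EEF1D largest at 0.605, adjusted p 0.565, edgeR). EEF1D was at 0.455 to 1.05 CPM in the WT and knockdown libraries, against 277.0 to 301.9 CPM in young and old cells, so that value rests on few counts.

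**Figure D4:**
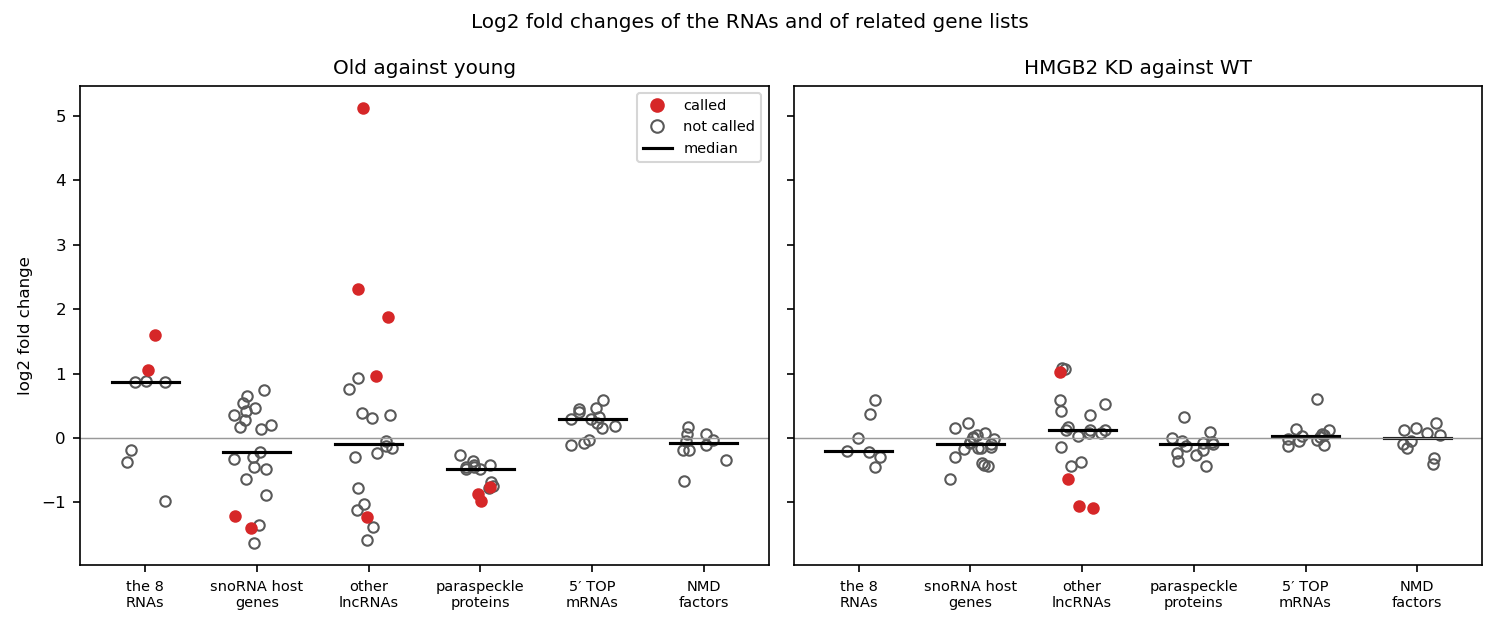
Log2 fold changes from edgeR of the 8 RNAs and of the genes tested in 5 related lists, for old against young cells (left) and HMGB2 KD against WT (right); each point is a gene, red points are called and bars are medians. The mRNAs of paraspeckle proteins all lie below 0 on the left, with a median of -0.48, and the 8 RNAs have a median of 0.87.

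The gene whose levels ran most like those of each RNA was found by the Euclidean distance between centred log2 levels over the 8 tables and libraries of the tested comparisons, among 12775 genes. The nearest were ATP9A to NEAT1 (distance 0.132), KIAA0513 to MALAT1 (0.22), CSTB to GAS5 (0.169), C16orf74 to PVT1 (0.175), CFAP20DC to MIR31HG (0.320) and SANBR to CDKN2B-AS1 (0.183). SNHG1 was nearest to SNHG17 (0.197), another snoRNA host, with C15orf40, which is not one, next at 0.201. MIR22HG was not placed, as it was listed at 0 in WT and HMGB2_KD libraries.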

How the data were processed

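Poly(A)-selected RNA was sequenced by the authors after TRIzol lysis and TruSeq library preparation. The submitters' processing notes name STAR 2.6.0c, featureCounts and DESeq2 on GRCh37. For young and old cells the deposited tables hold estimated counts and TPM per transcript, and the quantifier is not given in the sources used here. Of 205259 transcript IDs, 97.7% matched GENCODE (v44lift37), holding 97.2 to 97.4% of the estimated counts, which were summed per gene and rounded. Labels list 2 replicates for each of these tables, and whether a table pools them is not stated. The deposited WT and HMGB2 KD tables hold raw counts per gene, with 16.9 to 18.0% of reads in rows that name no gene, and the ICM tables hold read counts per gene and region deposited by the authors, of which all regions were summed. Use of strand in counting is not given in the sources used here, so a gene and its antisense partner cannot be told apart.

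Old against young cells (isolate as covariate) and HMGB2 KD against WT were fitted over all genes passing filterByExpr with edgeR 4.0.16 (TMM, quasi-likelihood, R 4.3.3). Genes with an adjusted p under 0.01 and a log2 fold change beyond 0.6, the limits in the study's methods, were called. For its mRNA calls the study's results give an adjusted p under 0.05, which was used here as an alternative. SE is the log2 fold change over the root of F. ICM ratios used a prior count of 2. Exact binomial intervals at 95%, and depth, cover counting error only. The fits were also run on simulated data with a fixed spread and no isolate effect, which does not test them at the spread of these libraries. Alternatives were RLE and plain totals, no filter, DESeq2 1.42.0, an RUVs factor, covariates, thresholds and left-out libraries. Replicates of WT and of HMGB2 KD differed beyond sampling noise (chi-square per degree of freedom 24.7 and 37.6), as did those of ICM (2.10).

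All 8 RNAs, neighbouring genes, the nearest gene by level and 4 check genes are named. So are transcripts with at least 10% of a gene's reads, except those of PVT1, CDKN2B-AS1 and MIR31HG, which are only counted. At most 4 genes of each list are named (called ones with the largest fold change, or the largest where none was called). CYTOR, TALAM1 and the markers of other cell types were named after their values were seen. The RNAs and lists were chosen with earlier results of these data known. Some genes of the lists and loci are not reported here.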

Additional observations from a re-analysis of the deposited data

Results flagged for a closer look

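MIR22HG, the host of miR-22, differed between the isolates in old against young cells: the log2 difference was -0.44 in I79 and 0.06 in I10, or -0.50 between the isolates, with 1 table for each isolate and age. It stands out because these signs are opposite, but the 95% exact interval in I10 (-0.08 to 0.20) includes 0 and in TPM the old I10 value lay below the young one, so opposite movement is not shown. The difference between the isolates was not tested.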

How the results depend on the processing

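In old against young cells 1447 genes were called, and 3130 with plain library totals, 4251 without the filter on low counts and 3860 at an adjusted p under 0.05. The RNAs called were MALAT1 and NEAT1 (2), and 4 without the filter and at an adjusted p under 0.05, with GAS5 and PVT1 added; RLE size factors, plain totals, DESeq2 and a fit without isolate gave 3, with GAS5 added. Plain totals moved the median log2 fold change of all genes from -0.01 to -0.22 and the share of calls that were higher from 60.1% to 32.6% (in HMGB2 KD from 55.0% to 44.3%), and GAS5 was then at 0.65. MIR22HG was at 0.06 without I79. In HMGB2 KD against WT 797 genes were called, and 312 to 999 when 1 library was left out (312 without HMGB2_KD replicate 2). None of the 7 RNAs was called under any of these alternatives. PVT1, at 0.001, changed sign with RLE size factors and DESeq2 (both -0.004), plain totals (-0.064), no filter (-0.008), an RUVs factor (-0.035), the replicate block (-0.002), without WT replicate 2 (-0.008) and without HMGB2_KD replicate 2 (-0.117), with values of -0.117 to 0.102 when 1 library was left out. With the replicate block 1243 genes were called; deviations of same-numbered libraries correlated at 0.124 over 2 pairs, and nothing in the labels says that the numbers pair the libraries. With coding and noncoding ICM reads only, log2 ratios of ICM to I79 young were higher for all 8 RNAs, GAS5 went from -0.35 to 0.31, and NEAT1 from 1.11 to 1.77. This setting left reads of other regions out of the ICM totals only. All ICM reads of the 8 RNAs lay in the noncoding region, so their ratios rise by construction. Depth limits CDKN2B-AS1 and MIR31HG, which had 11 to 87 estimated counts in young and old cells.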
